A study of Mus musculus with 4 samples.

Results

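The AP-1 and EGR immediate early factors are 10 transcription factor genes, namely the FOS genes Fos, Fosb, Fosl1 and Fosl2, the JUN genes Jun, Junb and Jund, the zinc finger genes Egr1 and Egr3, and Atf3. They were chosen by name, and all 10 had a row among the 28440 gene rows of the count table. RNA was sequenced from 4 mammary gland tumours, numbered 1 to 4, of mice of the genotype MMTV-R26Met. As background, these mice model triple-negative breast cancer: the MMTV promoter, active in mammary epithelium, serves to switch on an extra Met gene placed at the Rosa26 locus, and Met encodes the receptor of hepatocyte growth factor. All 4 tumours carry that genotype, no normal gland, treated tumour or other genotype was analysed here, and the sources used here give no strain, age or treatment. The question asked of these genes is therefore how much of each the tumours expressed and how far the tumours differed.

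FOS and JUN proteins carry a basic region and a leucine zipper through which they pair, and the pair, called AP-1, binds the DNA sequence TGACTCA and its close relatives. FOS proteins need a JUN partner to bind, whereas JUN proteins can also pair with each other. Genes such as Fos and Egr1 are called immediate early because growth factors switch them on within minutes, without new protein synthesis. This runs chiefly through ERK and JNK kinases that receptors such as Met activate. The name fits the genes of this group unequally, since Jund is found in most resting cells and Fosl1 is itself a target of AP-1. EGR1 and EGR3 are zinc finger factors induced by the same signals, and ATF3 is a leucine zipper factor of the stress response that can pair with JUN proteins. In mammary tumours AP-1 is known for driving growth, invasion and inflammatory genes.

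The 4 libraries held 35220504 to 42809015 counts, and scaling factors between them (TMM, a correction for library make-up) lay between 0.98 and 1.04. Counts of every 2 libraries disagreed by more than sampling noise (chi-square over its degrees of freedom 110.2 to 324.6), so each was kept as a separate sample. Whether each tumour is from its own mouse is not in the labels, and p-values describe the spread between these 4 samples only. The epithelial markers Epcam and Krt8 were present in every tumour, at 476 to 756 and 784 to 1232 CPM (counts scaled to library size, with TMM factors), as the tissue label requires. Tumour 3 stood apart in skeletal muscle genes, whose 4 markers summed to 839 CPM there and to at most 0.917 CPM in the others.

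Promoter windows from RefSeq (GRCm38.p6), running from 250 bases before to 50 after the annotated start, were searched for motifs in 7 of the genes. Of these windows 5 are printed because Fos, Fosb, Jund and Atf3 took the same order of tumours below whereas Jun took another. Capitals mark matches, on either strand, to the core of the cAMP response element (TGACG), to the full element and its variants (TGACNTCA, which contains that core when N is G), to an EGR site (GCGNGGGCG) and to a TATA box (TATAAA).
Fos, chr12:85473640-85473939, plus strand: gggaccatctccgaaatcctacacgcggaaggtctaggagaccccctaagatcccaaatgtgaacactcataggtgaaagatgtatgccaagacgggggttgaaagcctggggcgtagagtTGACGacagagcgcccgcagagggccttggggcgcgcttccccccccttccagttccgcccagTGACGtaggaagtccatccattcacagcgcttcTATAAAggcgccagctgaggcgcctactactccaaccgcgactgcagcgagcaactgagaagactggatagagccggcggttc
Fosb, chr7:19309996-19310295, minus strand: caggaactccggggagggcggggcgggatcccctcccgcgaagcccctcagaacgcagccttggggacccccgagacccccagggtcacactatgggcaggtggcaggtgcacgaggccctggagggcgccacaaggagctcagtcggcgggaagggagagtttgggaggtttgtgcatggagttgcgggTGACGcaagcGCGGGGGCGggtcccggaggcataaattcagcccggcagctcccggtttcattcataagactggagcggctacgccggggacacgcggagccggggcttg
Atf3, chr1:191183284-191183583, minus strand: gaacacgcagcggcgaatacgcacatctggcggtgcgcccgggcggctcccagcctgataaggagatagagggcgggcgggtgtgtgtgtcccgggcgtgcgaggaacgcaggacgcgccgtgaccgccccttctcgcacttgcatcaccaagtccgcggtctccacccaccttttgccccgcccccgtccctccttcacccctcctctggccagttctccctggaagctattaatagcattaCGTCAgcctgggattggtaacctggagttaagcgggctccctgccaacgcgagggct
Jund, chr8:70697489-70697788, plus strand: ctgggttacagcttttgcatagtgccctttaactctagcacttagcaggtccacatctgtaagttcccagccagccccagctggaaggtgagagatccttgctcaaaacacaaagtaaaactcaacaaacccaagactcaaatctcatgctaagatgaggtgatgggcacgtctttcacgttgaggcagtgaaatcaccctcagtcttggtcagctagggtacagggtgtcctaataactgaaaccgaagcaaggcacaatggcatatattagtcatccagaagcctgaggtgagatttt
Jun, chr4:95052173-95052472, minus strand: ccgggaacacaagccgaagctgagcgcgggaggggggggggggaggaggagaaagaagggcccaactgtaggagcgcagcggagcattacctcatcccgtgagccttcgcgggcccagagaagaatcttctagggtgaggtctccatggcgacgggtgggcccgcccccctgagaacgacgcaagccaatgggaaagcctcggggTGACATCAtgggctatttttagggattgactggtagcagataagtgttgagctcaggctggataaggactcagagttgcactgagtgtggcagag

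The TGACG core lay in the windows of Fos, Fosb, Junb and Atf3, 4 of the 7 searched, and 20.8% of 32851 mouse promoter windows of the same length hold it. In Fos it lay at -129 to -125 and again at -66 to -62 from the annotated start, ahead of the TATA box at -33 to -28. In Atf3 it lay on the other strand, where the printed capitals read CGTCA, at -7 to -3. The Jun window held TGACATCA at -45 to -38, a variant of the full element that 8.83% of all windows match in some form. EGR sites lay in the windows of Fosb and Fosl2, against 5.55% of all windows. The window of Jund, placed by its annotated RefSeq start, held no match to these motifs, and no other start of that gene was searched. None of the 7 windows held TGACTCA (5.2% of all windows) or a CArG box, the core of the serum response element (1.63%). Sites farther upstream than these windows reach were not searched, nor were the promoters of Fosl1, Egr1 and Egr3. The search therefore cannot tell whether these genes lack a serum response element or TGACTCA outside the windows. Matches are descriptions of these letters only.

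Of the 10 genes, 9 had their highest level in tumour 4, Jun being the exception, and 7 had their lowest in tumour 1. Without Fosb, which was too scarce to test, these counts were 8 of 9 and 6 of 9. Of the 15808 genes tested, 28.5% had their highest level in tumour 4 and 24.8% their lowest in tumour 1. The levels of Fos, Jund, Egr3 and Atf3, 4 of the 9 tested, took the full order of tumours 4, 2, 3 and 1, an order that 6.33% of the genes tested took, and Fosb had it too. By 95% intervals of counting error this order was only partly resolved. The intervals overlapped for tumours 2 and 3 of Jund and for tumours 1 and 3 of Atf3. For Fosb they overlapped between all tumours except tumour 1 with tumour 2 or 4. Overlap alone does not settle an order. The patterns of highest tumour, lowest tumour and order were noticed in the values and carry no test. The median level of the 9 tested members, relative to each gene's mean over the tumours, stood at -0.60, 0.08, -0.24 and 0.79 on the log2 CPM scale for tumours 1 to 4, while the median of all tested genes lay within 0.01 of 0 in each tumour. TMM scaling brings the median of all genes near 0, so it does not show how far a median of 9 genes may lie from 0.

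**Figure D1:**
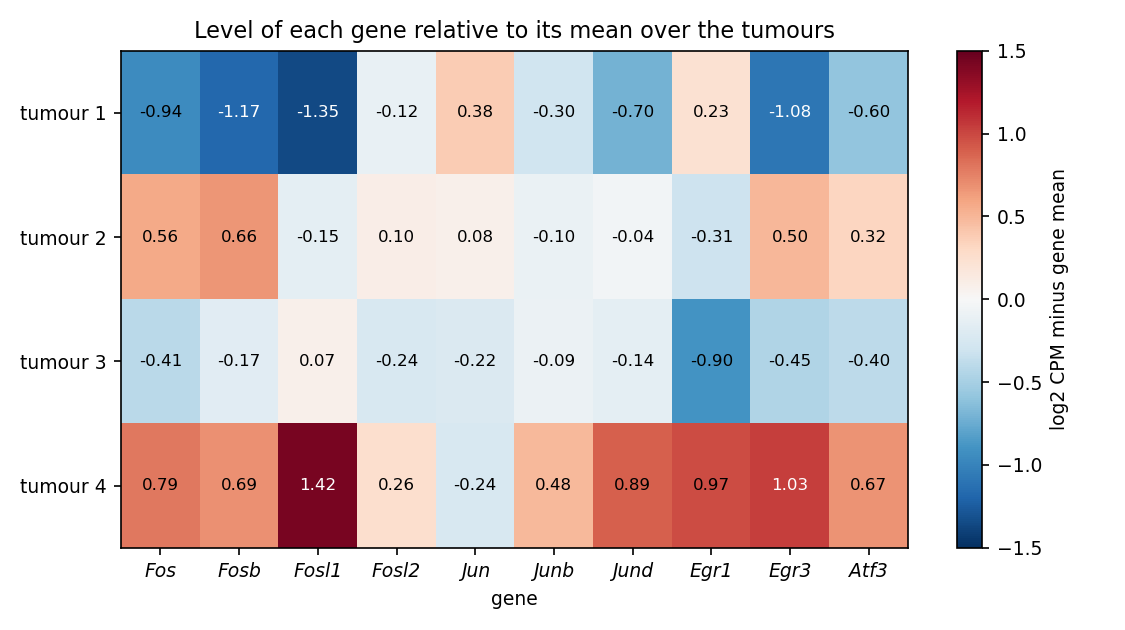
Level of each of the 10 genes in each tumour relative to the gene's mean over the 4 tumours (log2 CPM minus mean, colour and number). The row of tumour 4 is positive for 9 genes and -0.24 for Jun, and the row of tumour 1 is negative for 8 genes and positive for Jun and Egr1.

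A test asked whether a gene varied more over the tumours than others of similar abundance (edgeR, deviance of an intercept-only fit at the trended dispersion, Benjamini-Hochberg over all genes tested). None of the 9 tested members passed at an adjusted p of 0.05, where 3.63% of all genes tested did. At an unadjusted p under 0.05 the count was 3, namely Fosl1, Egr1 and Fos, where 8.74% of all genes fell under that value. With no filter on low counts none of the 3 did (unadjusted p = 0.301, 0.0611 and 0.0665 by edgeR). DESeq2's rule for dispersion outliers marked 0 of the 9 members and 91 of 15808 genes. The highest tumour exceeded the lowest by a median fold of 3.03 over the 9 members, against 1.72 over all genes tested. The test set each gene against the spread of genes at its abundance, a biological coefficient of variation of 0.331 at Fosl2 and 0.507 at Egr3.

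Fos (chromosome 12, 85473890 to 85477274, GRCm38.p6), the founding member and a short-lived partner of the JUN proteins, had 24.8, 70.7, 35.9 and 82.4 CPM in tumours 1 to 4. Tumours 2 and 4 were thus alike and high, and tumours 1 and 3 low. The mean was 53.5 ± 27.5 CPM (SD, n = 4), the highest tumour was 3.31-fold above the lowest, and the spread did not pass (edgeR unadjusted p = 0.0488, adjusted p = 0.563). Fosb (chromosome 7, 19302696 to 19310118), a FOS gene best known from neurons, was barely detected, with 5, 19, 11 and 23 counts in tumours 1 to 4. These are 0.118, 0.548, 0.287 and 0.560 CPM, and the 95% exact Poisson intervals of tumours 2 and 4 (0.33 to 0.856 and 0.355 to 0.841 CPM) cover each other, so which of them was highest was not detectable at this depth. Such intervals cover counting error only. Fosb was the 1 member too scarce to be tested.

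Fosl1 (chromosome 19, 5447698 to 5455938), which encodes FRA1, a FOS protein linked to invasion and itself a target of AP-1, had 11, 23, 30 and 85 counts in tumours 1 to 4, or 0.259, 0.663, 0.782 and 2.07 CPM. Tumour 4 exceeded the others beyond counting error, its interval of 1.65 to 2.56 CPM lying above the upper bound of 1.12 CPM in tumour 3, and tumour 1 was lowest. This was the widest fold of the 10 genes, 6.85, on the smallest counts of those tested (edgeR unadjusted p = 0.0294, adjusted p = 0.404). The count of Fosl1 is uncertain. Of its 2033 exon bases, 57.2% lie within exons of Ccdc85b on the opposite strand, and the sources used here do not state whether counting used strand. Ccdc85b had 13.5, 8.51, 11.5 and 11 CPM in tumours 1 to 4, which is not the order of Fosl1. The part of the overlap in the Fosl1 counts was not tested, and levels and shares of Fosl1 below carry the same uncertainty.

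Fosl2 (chromosome 5, 32136472 to 32157840), which encodes FRA2, a longer-lived FOS protein, was the steadiest of the 10 genes. It had 105.5, 123, 96.8 and 137 CPM in tumours 1 to 4, averaging 115 ± 17.8 (SD, n = 4) with a fold of 1.41 (edgeR adjusted p = 1). Tumours 2 and 4 were again the higher pair, as for Fos, but by far less.

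**Figure D2:**
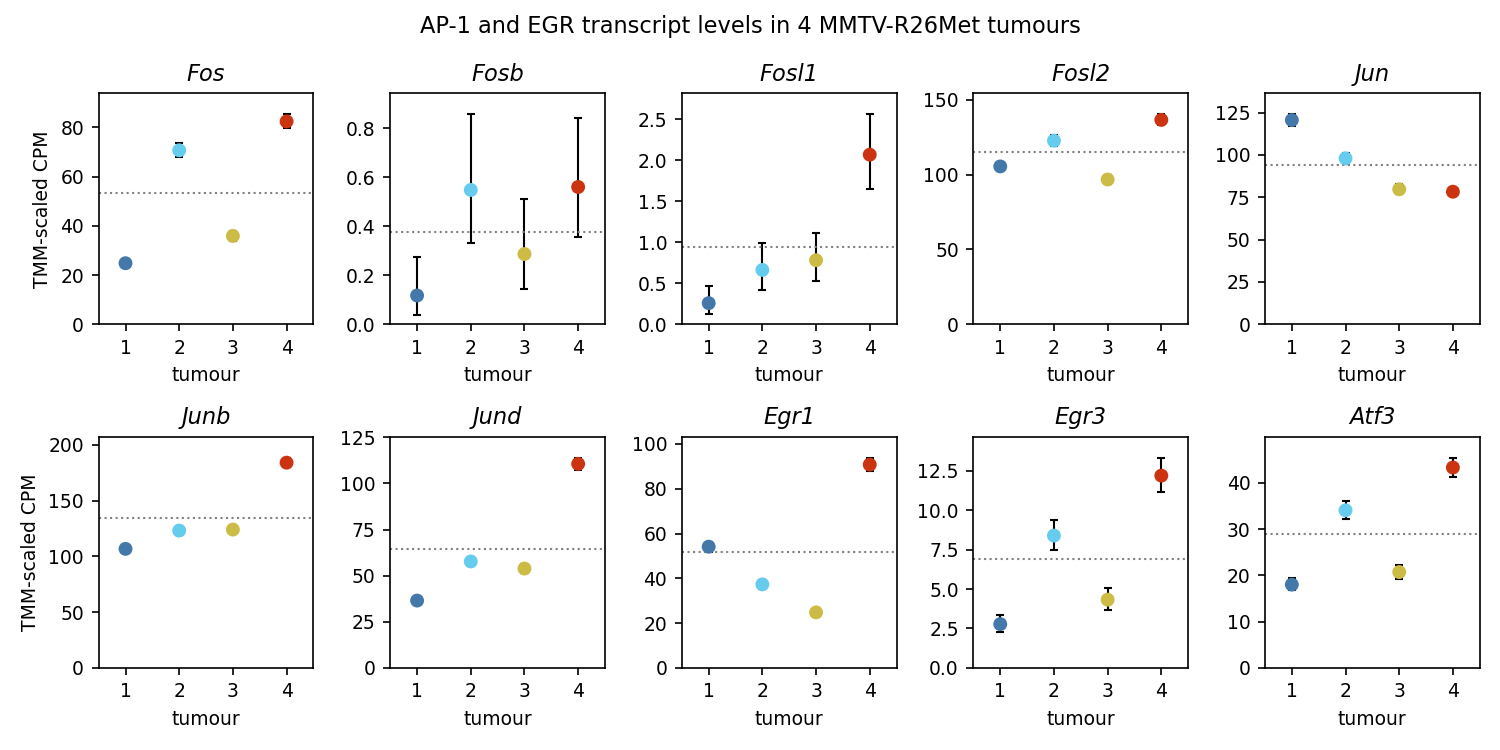
TMM-scaled CPM of each gene in tumours 1 to 4 (points, linear axes from 0, each gene on its own scale), with 95% exact Poisson intervals for counting error (bars) and the mean of the 4 tumours (dotted line). Tumour 4 is the highest point in 9 of 10 panels, and in the Jun panel tumour 1 is highest at 120.6 CPM and tumour 4 lowest at 78.3 CPM.

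Jun (chromosome 4, 95049036 to 95052222), the main partner of FOS proteins and a substrate of JNK kinases, was the 1 member highest in tumour 1. It had 120.6, 98.0, 79.7 and 78.3 CPM in tumours 1 to 4, so tumour 1 was highest and tumours 3 and 4 were level and lowest. The fold of 1.54 was small (edgeR adjusted p = 1). Junb (chromosome 8, 84976909 to 84978748), a JUN gene that can restrain the activity of Jun, had 107, 123, 124 and 184 CPM, with tumour 4 above 3 close values (fold 1.72, edgeR adjusted p = 1). Jund (chromosome 8, 70697739 to 70700616), the JUN gene found in most resting cells, had 36.5, 57.7, 53.8 and 110.6 CPM, with tumour 4 far above the rest and tumour 1 below them (fold 3.03, edgeR unadjusted p = 0.118, adjusted p = 0.991). The means of Jun, Junb and Jund were 94.2 ± 19.8, 134.5 ± 34.0 and 64.6 ± 31.98 CPM (SD, n = 4).

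Egr1 (chromosome 18, 34861207 to 34864956), an early target of serum response factor that activates growth and matrix genes, had 54.1, 37.3, 24.8 and 90.8 CPM in tumours 1 to 4. Tumour 4 was highest and tumour 3 lowest, and tumour 1 came second, unlike the order of Fos. The mean was 51.7 ± 28.7 CPM (SD, n = 4) and the fold 3.66, or a log2 range of 1.87 that was 1.13 without tumour 4 (edgeR unadjusted p = 0.0477, adjusted p = 0.556). Egr3 (chromosome 14, 70077317 to 70082613), a related factor that is itself a target of EGR1, had 2.78, 8.39, 4.33 and 12.2 CPM in tumours 1 to 4, in the order of Fos and not of Egr1 (fold 4.34, a log2 range of 2.12 that was 1.48 without tumour 1, edgeR adjusted p = 1). Of the EGR genes outside the 10, Egr2 had 12.9, 3.09, 7.09 and 17.2 CPM (edgeR adjusted p = 0.881). Egr4 had 0 counts in every tumour, which allows up to 0.0706 to 0.0865 CPM per library.

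Atf3 (chromosome 1, 191170296 to 191183333) had 18.0, 34.1, 20.7 and 43.3 CPM in tumours 1 to 4, averaging 29.0 ± 11.8 (SD, n = 4). Tumours 2 and 4 were high and tumours 1 and 3 low, as for Fos, over a smaller fold of 2.40 (edgeR unadjusted p = 0.302, adjusted p = 1). Measured as a Euclidean distance between log2 profiles centred on their means over the 4 tumours, Egr3 (0.30), Fosb (0.36) and Atf3 (0.44) lay nearest to Fos among the members, and Jun lay farthest (1.75), followed by Egr1 (1.55).

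The genes were ordered by level per length, as CPM per kilobase of exon. Lengths were unions of GENCODE M21 exons, while the annotation behind the counts is not named. The lengths of Junb (2301 bases) and Egr1 (4484 bases) exceed the RefSeq spans given above. That of Jund (1668 bases) falls short of its span and is also its longest transcript, so the alternative length below leaves it unchanged. The order is therefore approximate. Junb came first, at 58.4 ± 14.8, then Jund at 38.8 ± 19.2, Jun at 29.5 ± 6.20 and Fos at 22.7 ± 11.7 CPM per kilobase (SD, n = 4). Atf3, Fosl2 and Egr1 followed at 13.5 ± 5.50, 11.9 ± 1.84 and 11.5 ± 6.39, and Egr3, Fosl1 and Fosb were far lower, at 1.57 ± 0.963, 0.464 ± 0.386 and 0.0606 ± 0.0344 CPM per kilobase. Of the neighbours in this order, Junb exceeded Jund, Fos exceeded Atf3, and Egr1, Egr3 and Fosl1 each exceeded the next, in 4 of 4 tumours. Jund and Jun, Jun and Fos, Atf3 and Fosl2, and Fosl2 and Egr1 each changed places in at least 1 tumour and so did not differ beyond their spread. With the longest transcript in place of all exons, Fosl2 stood above Atf3.

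**Figure D3:**
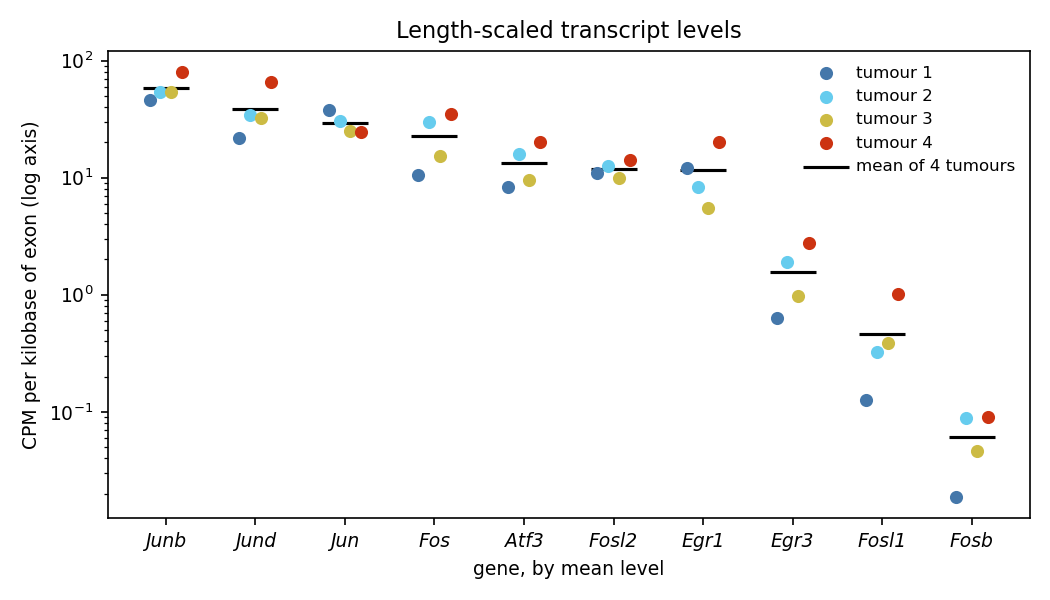
CPM per kilobase of exon (log axis) of the 10 genes in order of their mean, with 1 point per tumour and a bar at the mean of 4 tumours. The 3 JUN genes and Fos lead, Atf3, Fosl2 and Egr1 lie close together near 12, and Fosb lies lowest at 0.0606.

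Ratios between genes of 1 library do not depend on how libraries are scaled, and 10 pairs were taken after the levels had been seen. Per kilobase, Fos stood to Jun as 0.279, 0.978, 0.611 and 1.43 in tumours 1 to 4. Jun thus exceeded Fos in tumours 1 and 3, the pair was near parity in tumour 2, and Fos exceeded Jun in tumour 4, over a 5.11-fold range. The ratio of Jund to Jun was 0.578, 1.13, 1.29 and 2.70, a 4.67-fold range. With these lengths tumour 1 thus had more Jun and the other tumours more Jund. This depends on the lengths, and by counts with no length Jun exceeded Jund in tumours 1 to 3. Of the JUN counts Jun and Jund then held 35.2 and 20.7% in tumour 2 and 31.0 and 20.9% in tumour 3. The ratio of Junb to Jun was 1.23, 1.74, 2.16 and 3.26 and that of Atf3 to Jun 0.221, 0.515, 0.384 and 0.819. Each of these ratios had its lowest value in tumour 1 and its highest in tumour 4, and the 95% exact binomial intervals of those 2 tumours were apart for each. All have Jun, itself highest in tumour 1 and lowest in tumour 4, as denominator. The ratio of Fos to Egr1 took another order, 0.875, 3.61, 2.77 and 1.73, and so did that of Egr1 to Egr3, at 19.2, 4.37, 5.62 and 7.31. The ratios carry no test between tumours, since the 4 form 1 group.

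Within the JUN genes, Junb kept a share of 43.7 to 48.5% of the counts per kilobase. The share of Jun was 35.7, 25.9, 22.5 and 14.4% in tumours 1 to 4 and that of Jund 20.6, 29.1, 29.0 and 38.8%. Within the FOS genes, Fos held 48.9, 69.7, 59.4 and 69.7% and Fosl2 held 50.4, 29.4, 38.9 and 28.1%, so with all exons as the length Fosl2 was level with Fos in tumour 1 and below it in tumours 2 and 4. This depends on the length used: with the longest transcripts Fos stood to Fosl2 as 0.730, 1.79, 1.15 and 1.87 in tumours 1 to 4, and by counts with no length Fosl2 held 80.7% and Fos 19% in tumour 1. Fosl1 held 0.589 to 2.03% and Fosb at most 0.204%.

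**Figure D4:**
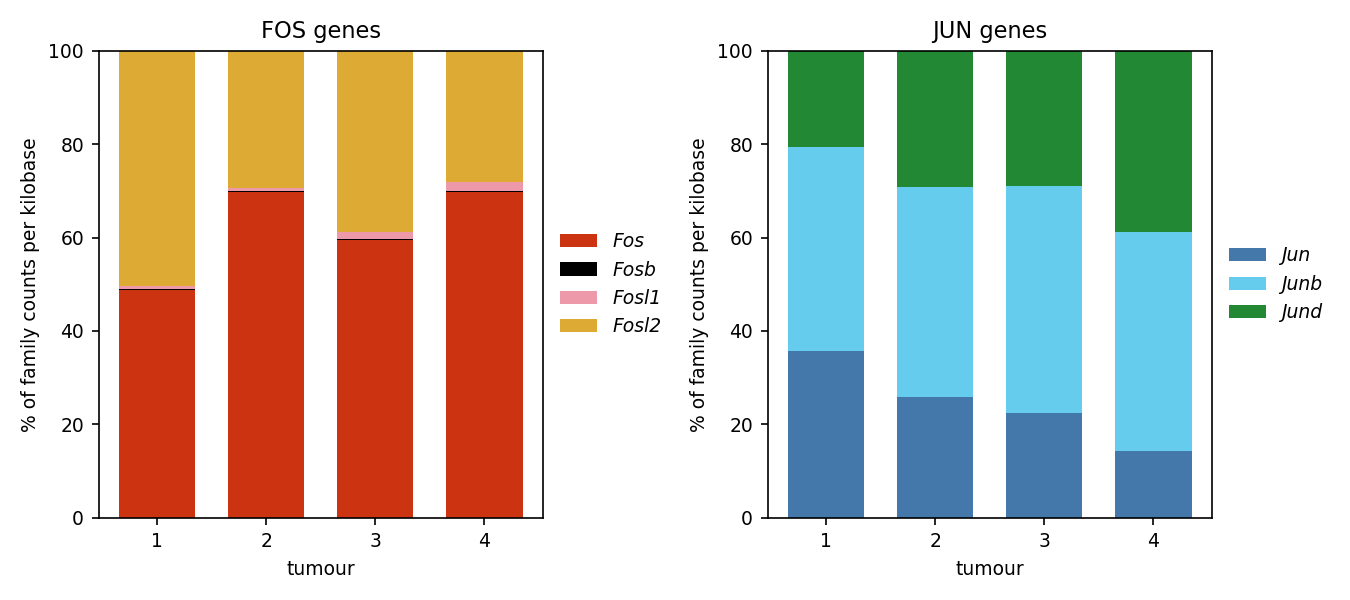
Share of each gene in the summed counts per kilobase of the FOS genes (left) and the JUN genes (right), in % for tumours 1 to 4. The share of Jun is 35.7% in tumour 1 and 14.4% in tumour 4, that of Jund 20.6 and 38.8%, and Fosl2 has its widest band in tumour 1.

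Other genes of the pathway were set beside these from lists chosen by function. Arc, Nr4a1, Ier2, Srf, Dusp1, Dusp2, Dusp4, Dusp5, Dusp8, Dusp10, Dusp16, Nab1, Nab2, Plaur and Ccnd1 are named after their values were seen. Of 25 other immediate early genes, 24 were tested and 0 passed the edgeR test at an adjusted p of 0.05 (3 at an unadjusted p under 0.05, 0 by DESeq2). Their median fold was 1.99, and 6 of the 25 were highest in tumour 4. Arc, a cytoskeletal immediate early gene of neurons, was highest in tumour 4, at 13.9, 22.2, 9.59 and 45.5 CPM in tumours 1 to 4 (edgeR adjusted p = 0.41). Nr4a1, an orphan nuclear receptor induced by the same signals, was lowest there, at 52.3, 73.5, 44.7 and 15.9 CPM (edgeR adjusted p = 0.382). Ier2, another immediate early gene, was level at 45.3 to 55.5 CPM. Sgk1, a kinase induced by serum and glucocorticoids, had the highest mean of that list and was highest in tumour 1, at 293, 110.1, 49.4 and 148 CPM (edgeR adjusted p = 0.0778, and 0.00871 without tumour 4).

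Upstream of the genes, none of 8 tested genes of serum response factor, its partners and MEF2 passed, nor did any of 14 kinases of the ERK, JNK and p38 cascades (edgeR, with 0 at an unadjusted p under 0.05 and 0 by DESeq2 in either list). Their median folds were 1.45 and 1.40. Srf itself, the factor that binds the serum response element, had 31.9 to 39.3 CPM. Mapk8, which encodes the kinase JNK1, had 35.7, 51.3, 33.1 and 64.0 CPM (edgeR adjusted p = 1). Mef2a and Elk3, the most abundant and the most variable of the serum response list, had 103 to 118 and 15.7 to 27.2 CPM.

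Among the phosphatases that act on these kinases, Dusp6 and Dusp4 were the most abundant by CPM. Dusp6, which dephosphorylates ERK and is induced by it, had 331, 218, 427 and 127 CPM in tumours 1 to 4 (edgeR adjusted p = 0.795), and Dusp4, a related nuclear phosphatase, had 170, 104, 260 and 86.2 CPM (edgeR adjusted p = 0.773). Both peaked in tumour 3 and had their lowest level in tumour 4, whereas Dusp8 (4.98 to 8.33 CPM), a scarcer relative, was highest in tumour 4. Dusp5 (0.339 to 0.585 CPM) had 24 counts in tumour 1 and 24 in tumour 4, so its highest tumour was not detectable. Of the other phosphatases listed, Dusp2, Dusp10 and Dusp16 were highest in tumour 3 and Dusp1 in tumour 2. The ratio of Fos to Dusp6 per kilobase was 0.0999, 0.432, 0.112 and 0.863, and that of Egr1 to Dusp6 was 0.114, 0.120, 0.0405 and 0.499. None of the 10 EGR corepressors and phosphatases passed (edgeR, with 0 at an unadjusted p under 0.05 and 0 by DESeq2). Nab1 and Nab2, which bind and restrain EGR proteins, had 95.8 to 126 and 37.7 to 53.9 CPM.

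**Figure D5:**
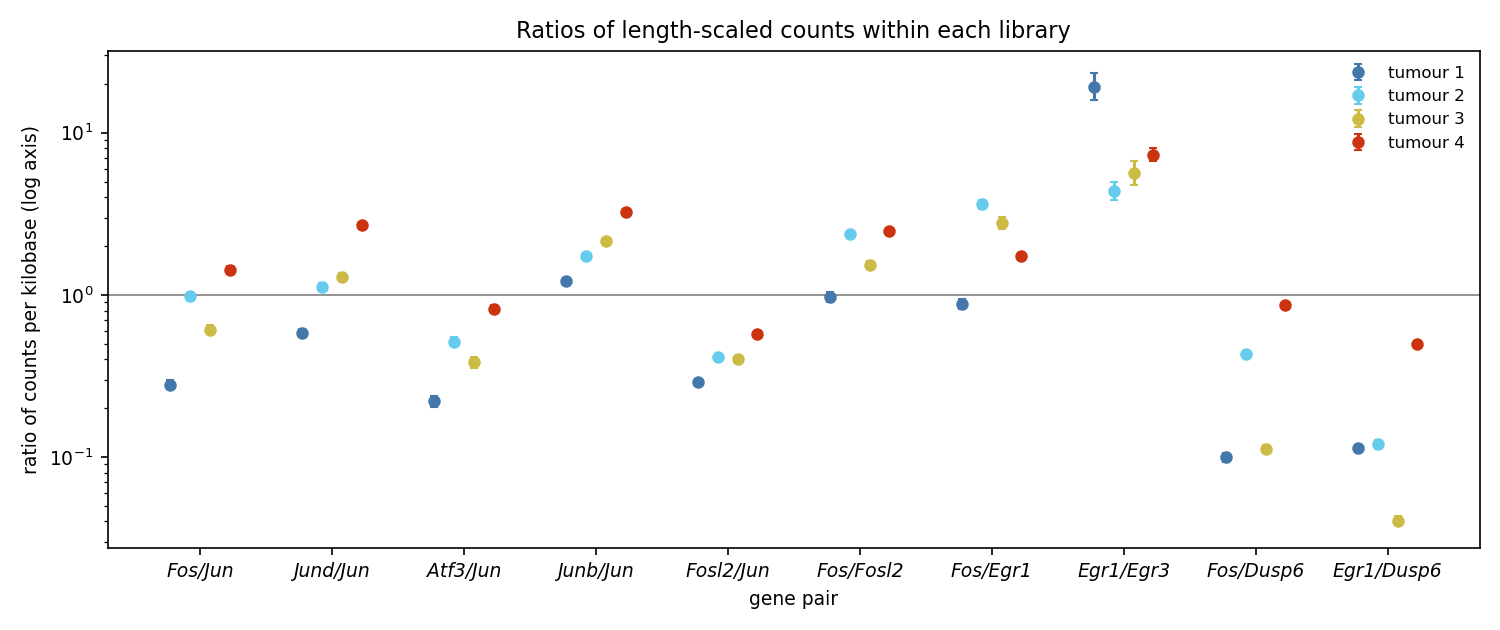
Ratio of counts per kilobase between pairs of genes within each library (log axis, 1 point per tumour, bars for 95% exact binomial intervals of counting error). Tumour 4 has the highest ratio in 8 of the 10 pairs, 1.43 for Fos to Jun and 0.863 for Fos to Dusp6, while tumour 2 leads for Fos to Egr1 and tumour 1 for Egr1 to Egr3. The pairs were taken after the levels had been seen, and Jun and Dusp6, lowest in tumour 4 themselves, are the denominators of most. That count is therefore no separate result.

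Of 17 other leucine zipper factors 2 had an unadjusted p under 0.05 (edgeR), and 1 passed, Batf2, an interferon-induced factor that pairs with JUN proteins, at 1.43, 5.71, 1.02 and 15.4 CPM in tumours 1 to 4 (edgeR adjusted p = 0.0276). That call was lost without tumour 1, 3 or 4 (adjusted p = 0.0999, 0.134 and 0.53), with no filter on low counts (0.106) and with genes under 5 CPM left out (0.0672), and DESeq2 did not make it. Atf4, a stress factor and the most abundant of that list by CPM, had 216 to 235 CPM. Of 17 tested genes with described AP-1 or EGR sites 6 had an unadjusted p under 0.05 (edgeR), and 1 passed, Spp1, which encodes osteopontin, at 487, 484, 771 and 9899 CPM (edgeR adjusted p = 4.26e-08, and 1 without tumour 4). Their median fold was 2.89, and 11 of the 19 in the list were highest in tumour 3, as were 29.7% of all genes tested, and 6 in tumour 4. Plaur, the urokinase receptor, had 15.7, 34.1, 34.5 and 72.8 CPM (edgeR adjusted p = 0.378). By contrast Ccnd1, the cell cycle gene of cyclin D1, was highest in tumour 3, at 116, 84.7, 385 and 146 CPM (edgeR adjusted p = 0.121, and 0.0198 without tumour 4).

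Among 11382 candidate genes averaging 5 CPM or more, the profiles nearest to Fos were those of Gda (distance 0.20), Mpzl3 (0.20), Exph5 (0.21), Ccn5 (0.24) and Tnfrsf23 (0.25), over 4 tumours. Gda, a guanine deaminase, had 48.8, 121.5, 58.6 and 142 CPM in tumours 1 to 4. The profiles nearest to Fosl1, the tested member with the largest SD, were Ccn3 (0.27), P2ry2 (0.31), Plaur (0.43), Map3k21 (0.47) and Cd36 (0.48).

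Markers of several cell types were set beside these genes, and their sums took different orders of tumours. The 5 epithelial markers summed to 2288, 3568, 3015 and 3864 CPM in tumours 1 to 4, the same order as Fos, and 3 of the 5, Krt8, Krt19 and Cdh1, had that order singly. Krt19, a luminal keratin, passed the test, at 11.6, 147, 40.8 and 370 CPM in tumours 1 to 4 (edgeR adjusted p = 1.96e-08). Relative to that sum Fos stood at 1.08, 1.98, 1.19 and 2.13%, so the same order was found with a fold of 1.97, and 6 of the 10 genes, all 6 tested, were highest in tumour 4 where 9 were by CPM. On that scale 8.94% of the genes tested were highest in tumour 4. Jun was again highest in tumour 1, at 5.27%, and lowest in tumour 4, at 2.03%. The choice of this scale was made after the values were seen.

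The basal epithelial markers Krt5, Krt14 and Trp63 passed the test and were highest in tumour 4, at 87.0, 89.6 and 46.5 CPM, the next highest tumours having 4.07, 28.3 and 7.70 CPM (edgeR adjusted p = 1.47e-15, 3.86e-08 and 3.8e-05, and 0.644, 0.0118 and 1 without tumour 4), and the 4 basal markers summed to 79.1, 129, 143 and 286 CPM. The other basal marker, Acta2, a smooth muscle actin, gave most of that sum in tumours 1 to 3 and was lowest in tumour 4, at 72.8, 109, 112 and 63.0 CPM (edgeR adjusted p = 1). Fibroblast markers summed to 1573, 1763, 2114 and 2582 CPM, endothelial markers to 159, 118, 149 and 93.9 CPM, and macrophage markers to 206, 280.0, 227 and 238 CPM. T cell markers summed to 2.19, 3.95, 1.33 and 4.31 CPM, and 3 of the 4 were highest in tumour 4. The neutrophil marker sum was highest in tumour 3, at 88.8 CPM, where the other 3 tumours had 15 to 50.8 CPM, and 3 of its 4 markers were highest there. The adipocyte sum was 15.5, 31.7, 91.3 and 8.67 CPM, of which Fabp4 gave 15.1, 25.8, 90.9 and 7.92 CPM, and the other 3 markers, Adipoq, Plin1 and Lep, were highest in tumour 2, at 3.72, 1.36 and 0.779 CPM. S100a9, a neutrophil gene, and Fabp4, an adipocyte gene, passed (edgeR adjusted p = 0.0183 and 0.000671, and 1 for both without tumour 3). The S100a9 call was also lost without tumour 2 (0.179), with no filter on low counts (0.0524) and with genes under 5 CPM left out (0.0516), and Holm adjustment ended both. Heat shock genes, a sign of stressed tissue, summed to 3366, 4212, 3258 and 2863 CPM, and without Hspa8, a constitutive chaperone, the other 7 summed to 857, 1173, 1060 and 1073 CPM. Of these, 0 of 8 passed (edgeR, with 0 at an unadjusted p under 0.05 and 0 by DESeq2). Hspa8 had 1790 to 3039 CPM, and Hspb1, a small heat shock gene, 28.2 to 91.0 CPM. No marker was at 0 counts in any tumour. The part of these cell types in the levels of the 10 genes was not tested, and in bulk tissue fewer cells of a type and less RNA per cell cannot be told apart.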

How the data were processed

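Poly-A RNA of 4 mammary tumours was sequenced, and the authors deposited raw read counts per Entrez gene in 1 table, with 0 value columns not used here. FastQC, GRCm38 and mm10 are named per the submitters' processing notes, while the sources used here name no aligner, counter, annotation or strand setting. Symbols were found for 86.08% of rows, holding 97.86% of counts. CPM was computed on all counts with TMM factors, and log2 CPM with a prior count of 2. Genes were kept by filterByExpr in edgeR 4.0.16 (R 4.3.3; minimum count 10, minimum total 15). Each gene's deviance came from a negative binomial model with an intercept alone and trended dispersions, tested against chi-square and adjusted by Benjamini-Hochberg over 15808 genes, at a threshold of 0.05. The procedure was tested on simulated data. DESeq2 1.42.0 was an alternative, as were other scalings, filters, prior counts (0.5 and 5), Holm adjustment and leaving out each tumour. Levels between genes used the union of GENCODE M21 exons. Intervals are exact at 95%, and a count of 0 allows 3 counts. The members and lists were chosen with earlier results of these data known. In each list the genes named are those that passed, the one with the highest mean CPM and the one with the largest SD, and others are said to be chosen later; 1 gene that this rule names is not reported here.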

Additional observations from a re-analysis of the deposited data

Results flagged for a closer look

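In 66 profiles of genes, gene ratios and family shares screened over the 4 tumours, 6 had 1 tumour far from the others. This was measured as the gap to the nearest tumour over the whole range (above Dixon's critical value). Chance flags about 1 in 20 groups that were not picked for their spread. Some of these genes were named because they passed the test or had the largest SD, so that rate does not apply to them. None of the 10 AP-1 and EGR genes was among them. Tumour 4 stood high for Krt5 (0.961), Trp63 (0.870) and Spp1 (0.969). Tumour 3 stood high for the muscle actin gene Acta1 (1.000), and tumour 2 for the macrophage gene Adgre1 (0.922) and the heat shock gene Hspb1 (0.835).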

How the results depend on the processing

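No member passed the spread test under any alternative run, the lowest adjusted p being 0.204 for Fosl1, without tumour 3. Scaled by library size alone, Fos and Egr1 had unadjusted p of 0.0595 and 0.0608 (edgeR), and with genes under 5 CPM left out 0.0567 and 0.0521. The count of genes past the test was 574 by the stated settings, 895 with no filter on low counts, 198 with Holm adjustment, 91 by DESeq2 and 367 to 417 when 1 tumour was left out. Of the 98 tested genes of the pathway and heat shock lists, cell type markers apart, 2 passed, against 1 with no filter on low counts, genes under 5 CPM left out, Holm adjustment or DESeq2, and 1 to 3 when 1 tumour was left out. Leaving out 1 tumour gave log2 ranges from lowest to highest tumour of 0.85 to 1.86 for Fosb, 1.43 to 2.77 for Fosl1, 0.33 to 0.64 for Jun, 0.22 to 0.77 for Junb, 0.66 to 1.58 for Jund, 1.13 to 1.89 for Egr1 and 1.48 to 2.10 for Egr3. Counts without length gave mean family shares of 29.9% for Fos, 0.514% for Fosl1, 69.4% for Fosl2 and 21.3% for Jund, and the longest transcript gave 0.215% for Fosb and 52.0% for Junb. The count of 9 members highest in tumour 4 held under RLE scaling and library size alone, and was 6 relative to epithelial markers. Leaving out tumour 1, 2 or 3 could not lower that 9. In those runs 33.6, 36.8 and 37% of all genes tested were highest in tumour 4. These alternatives were chosen after seeing the data. Fosb and Fosl1 rest on 5 to 85 counts per tumour, which limits their precision. No paired analysis was possible because all tumours form 1 group.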
